A study of Rattus norvegicus with 4 samples.

Results

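The axon guidance ligands and receptors described here are the semaphorins and plexins, the ephrins and Eph receptors, the Slits and Robos, and the netrins with the Unc5 and Dcc receptors. They were chosen by gene symbol alone, and 56 of the 14218 genes with a single symbol on the array carry such a symbol. Of the 56, 49 had a probe set bright enough to be tested and 7 did not. The symbol rule also takes Unc50, a Golgi and endoplasmic reticulum protein, and Unc5cl, a death-domain protein related to the Unc5 receptors. Neither is a netrin receptor, so 54 members are guidance genes by function.

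Expression was measured in neurospheres, cell clusters that float in culture, raised from the dissociated retinae of Sprague Dawley rats at embryonic day 18. In the first condition the cells received epidermal growth factor (EGF) and endothelial cell conditioned medium (ECCM), and in the other EGF alone, so EGF was common to every sample. Each condition had 2 arrays, labelled biological replicates, of cells pooled from several embryos, and the labels give no transgene, sort or other treatment. A neurosphere holds several cell types, so fewer cells of a type and less RNA per cell cannot be told apart in any value below.

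Guidance ligands tell a growing axon or a migrating cell where to go, by attraction or repulsion at its tip. Class 3 semaphorins are secreted and bind neuropilins with plexins as the signalling partner, while most other semaphorins sit in the membrane and bind plexins directly. Ephrin-A ligands are tethered by a lipid anchor and ephrin-B ligands span the membrane, and both signal into the cell that carries the Eph receptor as well as back into their own. Slits repel through Robos, and netrins attract through Dcc or repel through Unc5 receptors. In the retina these systems are known for steering ganglion cell axons out of the eye and for the EphA map of the nasal and temporal retina. The same families also pattern blood vessels, where Plxnd1, Ephb4 and Unc5b are known receptors.

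The arrays were summarised by the authors as log2 values, whose medians were 6.84 and 6.56 with ECCM and 6.03 and 6.25 with EGF. Because the deposited arrays are not on 1 level, each gene was tested with limma as deposited, after centring each array on its median and after quantile normalization, which gives all arrays the same distribution. The median difference over all 11492 genes tested was 0.40, -0.16 and 0.00 log2 in turn. The words rose and fell are used of a gene only where its Benjamini-Hochberg adjusted p lay under 0.05 in the same direction under all 3 scalings. Values and differences (ECCM minus EGF) are quantile normalized log2 unless called deposited or median-centred, with limma's standard error (SE). The actin controls at the 3' end read above those at the 5' end, a gap that grows with RNA degradation, by 1.54 and 1.37 log2 with ECCM and by 1.99 and 2.08 log2 with EGF. This gap moved with the condition, and its part in the results was not tested.

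With ECCM 6 of the 49 tested members rose and 0 fell. They were the secreted ligand Sema3c and the receptors Ephb4, Epha4, Plxnd1, Epha2 and Unc5b. Over all genes tested 9.12% rose and 1.78% fell, so the share of members that rose, 12.2%, lies near the background and says nothing particular about guidance genes as a group. The median difference of the 49 members was -0.08 log2, against 0.00 log2 over all genes. Only 2 members, Sema3c and Ephb4, differed by 1 log2 or more, and 37 differed by less than 0.5 log2. Of the tested ligands 1 of 24 rose, and of the tested receptors other than Unc50 and Unc5cl 5 of 23 rose. The difference between ligands and receptors was not tested. Without EGF replicate 2, or without ECCM replicate 1, 3 members rose (Sema3c, Epha4 and Plxnd1).

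**Figure D1:**
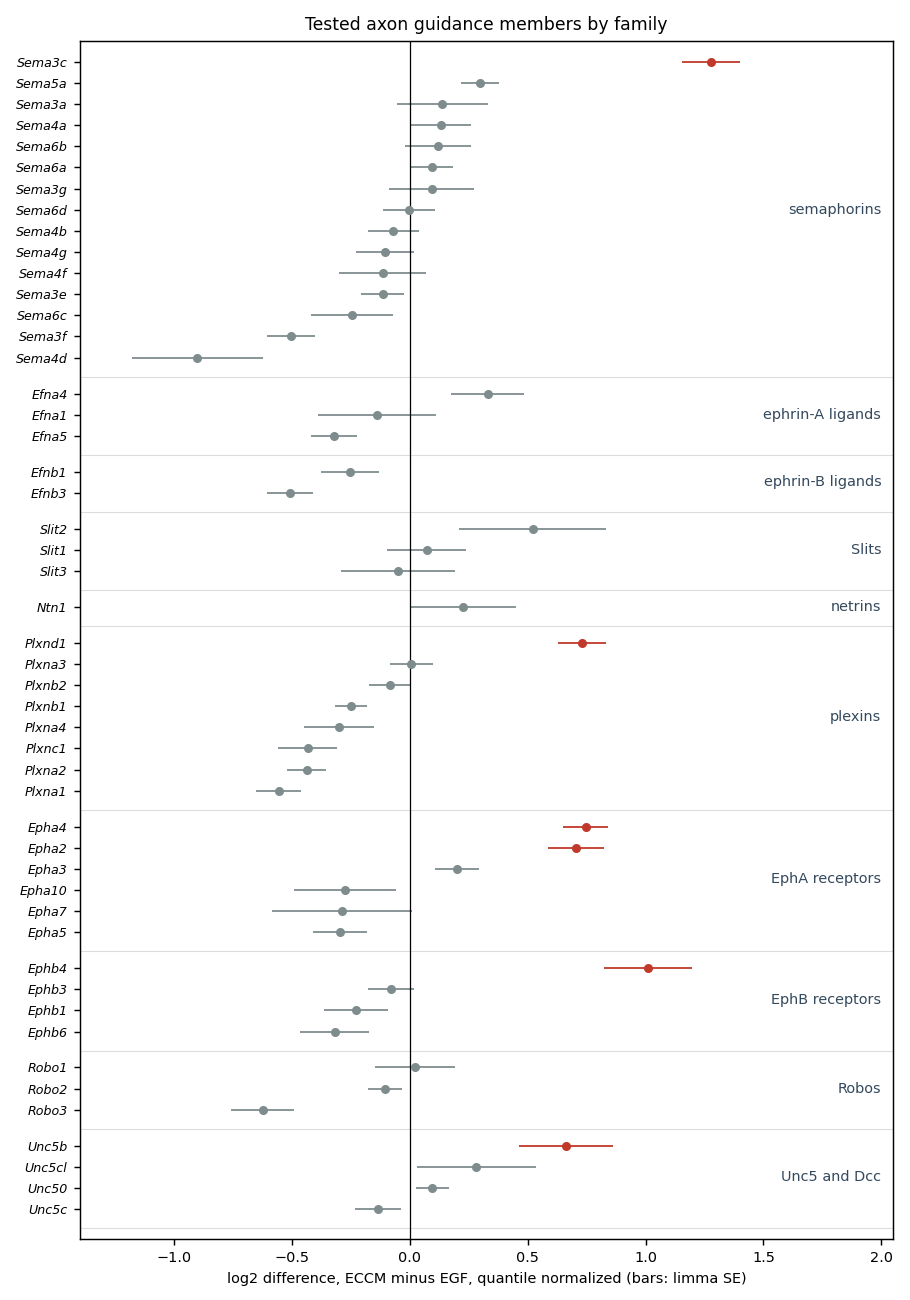
Quantile normalized log2 difference, ECCM minus EGF, of the 49 tested members, grouped by family (2 arrays a group), with limma's standard error as bars. Red points rose under all 3 scalings, and Sema3c lies farthest to the right at 1.28 log2, Sema4d farthest to the left at -0.90 log2 without passing under all 3 scalings.

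The stretch around the start site is printed for 4 of the members that rose, to show how unlike these genes are there. Each window runs from 250 bases before to 50 bases after the gene's start in the RefSeq table of rat assembly GRCr8, 5′ to 3′ on the gene's own strand. The capitals mark every match, on either strand, to the Sp/KLF box GGGCGG or the cyclic AMP response element TGACGTCA. The first 2 lie on chromosome 4, Sema3c at chr4:18699578-18699877 and Plxnd1 at chr4:150715138-150715437, both on the minus strand, with Epha2 at chr5:158888379-158888678 on the plus strand and Ephb4 at chr12:24988339-24988638 on the minus strand.
Sema3c: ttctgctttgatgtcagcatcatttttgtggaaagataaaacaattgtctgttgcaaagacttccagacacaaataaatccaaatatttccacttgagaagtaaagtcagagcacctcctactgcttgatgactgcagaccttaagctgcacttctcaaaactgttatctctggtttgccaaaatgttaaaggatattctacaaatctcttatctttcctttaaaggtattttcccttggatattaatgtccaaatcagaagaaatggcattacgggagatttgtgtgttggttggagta
Plxnd1: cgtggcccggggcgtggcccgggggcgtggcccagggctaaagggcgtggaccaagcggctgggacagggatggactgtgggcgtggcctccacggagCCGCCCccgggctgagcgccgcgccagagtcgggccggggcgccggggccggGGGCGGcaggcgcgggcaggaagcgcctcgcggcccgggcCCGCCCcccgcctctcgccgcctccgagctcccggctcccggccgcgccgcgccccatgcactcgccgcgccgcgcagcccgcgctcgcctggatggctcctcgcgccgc
Ephb4: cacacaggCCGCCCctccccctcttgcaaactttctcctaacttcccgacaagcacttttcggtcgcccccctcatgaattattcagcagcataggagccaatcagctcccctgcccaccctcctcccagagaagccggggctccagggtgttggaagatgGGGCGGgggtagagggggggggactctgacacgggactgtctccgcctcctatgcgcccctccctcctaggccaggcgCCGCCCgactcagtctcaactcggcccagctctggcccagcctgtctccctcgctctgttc
Epha2: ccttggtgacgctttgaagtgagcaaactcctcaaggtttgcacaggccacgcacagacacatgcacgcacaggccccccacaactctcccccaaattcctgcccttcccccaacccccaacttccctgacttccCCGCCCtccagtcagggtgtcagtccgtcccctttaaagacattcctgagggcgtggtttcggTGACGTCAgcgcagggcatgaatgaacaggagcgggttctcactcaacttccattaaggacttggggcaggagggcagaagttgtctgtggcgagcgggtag

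The Sema3c window had 36.3% G and C and 1 CpG, and the Plxnd1 window 83.0% and 48 CpGs. Those of Ephb4 and Epha2 lay between them, at 64.3% with 14 CpGs and 58.3% with 12. A window was available for 42 of the 56 members and for 5 of the 6 that rose, the fifth being Unc5b, with 74.3% G and C and 37 CpGs. Median G and C content was 62.0% over the 42 members and 52.3% over 27457 windows of the same length in the table. Those windows were not limited to genes on the array, as the members are. The Sp/KLF box was in 26 of the 42 (61.9%), against 34.9% of all windows. It occurred in Plxnd1, Ephb4, Epha2 and Unc5b and not in Sema3c. TGACGTCA was in the Epha2 window alone of the 42, against 1.91% of all windows. The AP-1 site TGANTCA was in 1 of the 42, Epha10, against 7.33% of all, the ETS core CGGAAG in 5 (11.9%), against 17.4%, and TATAAA in 0, against 14.3%. None of these 3 was in the window of a gene that rose.

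Among the semaphorins, 1 of 15 tested rose. Sema3c, a secreted class 3 semaphorin that guides neurons, neural crest and vessels, stood at 9.15 and 8.97 log2 in the ECCM arrays, against 7.63 and 7.94 log2 in the EGF arrays. Both ECCM values lay above both EGF values by about 1 log2 or more. That is a 2.42-fold rise (1.28 ± 0.12 SE, limma adjusted p = 3.72e-05), and it was 1.66 log2 as deposited and 1.09 log2 median-centred. Sema3c stayed past the threshold without any 1 of the 4 arrays.

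The other tested class 3 semaphorins did not rise or fall. Sema3e, the secreted ligand that binds Plxnd1 without a neuropilin, stood at 8.88 and 8.91 log2 with ECCM and 8.97 and 9.05 log2 with EGF (-0.12 ± 0.09 SE). Sema3a, the classical repellent of sensory and cortical axons, stood at 5.94 and 6.05 log2 with ECCM and 5.83 and 5.89 log2 with EGF, and Sema3g differed by 0.09 ± 0.18 log2 (SE). Sema3f, which repels through Nrp2, had 7.95 and 7.98 log2 with ECCM and 8.44 and 8.50 log2 with EGF. Its groups were apart, and its second probe set gave -0.59 log2 beside -0.51 log2, but the deposited difference was only -0.12 log2 (limma adjusted p = 0.613), so it was lower on 2 scalings and uncalled. Sema3b and Sema3d were too dim to be tested.

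Of the 10 membrane-bound semaphorins of classes 4 to 6, 0 rose and 0 fell, with a median of -0.04 log2. Sema5a, a thrombospondin-repeat semaphorin that keeps retinal axons and neurites in bounds, had the highest difference of them, at 9.91 and 9.96 log2 with ECCM and 9.63 and 9.65 log2 with EGF (0.30 ± 0.08 SE). It passed as deposited and after quantile normalization but not median-centred (0.06 log2). Sema4d, the ligand of Plxnb1, had the lowest difference, at 4.40 and 4.43 log2 with ECCM and 5.34 and 5.29 log2 with EGF (-0.90 ± 0.28 SE). This probe set is dim, the deposited difference was -0.14 log2, and it passed on the quantile normalized scale alone. Sema6a, a membrane semaphorin that acts with the class A plexins, had 9.97 and 10.19 log2 with ECCM and 10.00 and 9.98 log2 with EGF, and its groups overlapped. The remaining 7, Sema4a, Sema4b, Sema4f, Sema4g, Sema6b, Sema6c and Sema6d, lay between -0.25 and 0.13 log2.

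Plexins are the signalling receptors of the semaphorins, and 1 of 8 rose. Plxnd1, the receptor that Sema3e binds and that takes part in Sema3c signalling with neuropilins, stood at 8.61 and 8.66 log2 with ECCM and 7.87 and 7.94 log2 with EGF. The 2 arrays of each condition lay within 0.1 log2 of each other and the conditions did not overlap. The rise was 1.66-fold (0.73 ± 0.10 SE, limma adjusted p = 3.52e-04), and Plxnd1 also passed without any 1 of the 4 arrays.

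The other 7 plexins differed by -0.56 to 0.01 log2, and none of them rose or fell. Plxna1, a partner of neuropilins for class 3 semaphorins, had 8.35 and 8.25 log2 with ECCM and 8.86 and 8.86 log2 with EGF (-0.56 ± 0.10 SE), against -0.19 log2 as deposited. Plxna2 (-0.44 ± 0.08 SE), Plxnc1 (-0.43 ± 0.13 SE) and Plxnb1 (-0.25 ± 0.07 SE) were likewise lower after quantile normalization and median-centred, and not as deposited, where they differed by -0.11, -0.01 and 0.06 log2. Plxnb2, which binds class 4 semaphorins, had 10.38 and 10.18 log2 with ECCM and 10.30 and 10.43 log2 with EGF, so its groups overlapped. Plxna4 differed by -0.30 ± 0.15 log2 and Plxna3 by 0.01 ± 0.09 log2 (SE).

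The ephrins, the membrane-tethered ligands, gave 0 calls of 5 tested. Efna5, a repellent graded across the visual targets of retinal axons, had 9.58 and 9.84 log2 with ECCM and 10.06 and 10.01 log2 with EGF. It was lower by 0.32 log2 after quantile normalization, while its deposited means differed by 0.00 log2. Efnb3, an ephrin-B of the nervous system midline, had 8.52 and 8.50 log2 with ECCM and 8.95 and 9.09 log2 with EGF (-0.51 ± 0.10 SE), with a deposited difference of -0.15 log2. Efna4 (0.33 ± 0.15 SE), Efna1 (-0.14 ± 0.25 SE) and Efnb1 (-0.25 ± 0.12 SE) did not pass after quantile normalization. Efna4 was higher as deposited alone (0.81 log2), and Efnb1 was lower median-centred alone (-0.39 log2).

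Of the Eph receptors, the tyrosine kinases that bind ephrins, 3 of 10 tested rose, beside 9.12% of all genes. The share of a family was not tested against that of all genes. Ephb4, the receptor of ephrin-B2 known from veins, stood at 7.20 and 6.92 log2 with ECCM and 6.24 and 5.86 log2 with EGF. The gap between the conditions was wider than that between arrays of either, and the rise was 2.01-fold (1.01 ± 0.19 SE, limma adjusted p = 0.00196). Epha4, which binds both ephrin-A and ephrin-B ligands, had 9.30 and 9.30 log2 with ECCM and 8.62 and 8.48 log2 with EGF, a 1.68-fold rise (0.75 ± 0.09 SE, limma adjusted p = 1.87e-04). Epha2, an EphA receptor of epithelia and progenitors, had 8.22 and 8.05 log2 with ECCM and 7.46 and 7.40 log2 with EGF, a 1.63-fold rise (0.70 ± 0.12 SE, limma adjusted p = 0.00109). In all 3 genes every ECCM array lay above every EGF array. Epha4 passed without any 1 array, while Epha2 and Ephb4 did not pass without EGF replicate 2 (0.66 and 0.81 log2) or without ECCM replicate 1 (0.63 and 0.90 log2).

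The other 7 tested Eph receptors lay between -0.32 and 0.20 log2. Epha5, an EphA receptor of ganglion cells, had 7.73 and 7.66 log2 with ECCM and 8.07 and 7.92 log2 with EGF (-0.30 ± 0.11 SE). Epha3 had 9.48 and 9.46 log2 with ECCM and 9.36 and 9.18 log2 with EGF (0.20 ± 0.09 SE) and passed as deposited alone. Ephb1, which turns ganglion cell axons away from the midline at the chiasm, differed by -0.23 ± 0.14 log2, Ephb3 by -0.08 ± 0.10 log2 and Ephb6, whose kinase domain is inactive, by -0.32 ± 0.15 log2 (SE). Epha7 and Epha10 differed by -0.29 ± 0.30 and -0.27 ± 0.22 log2, and Epha6 and Epha8 were too dim to be tested.

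**Figure D2:**
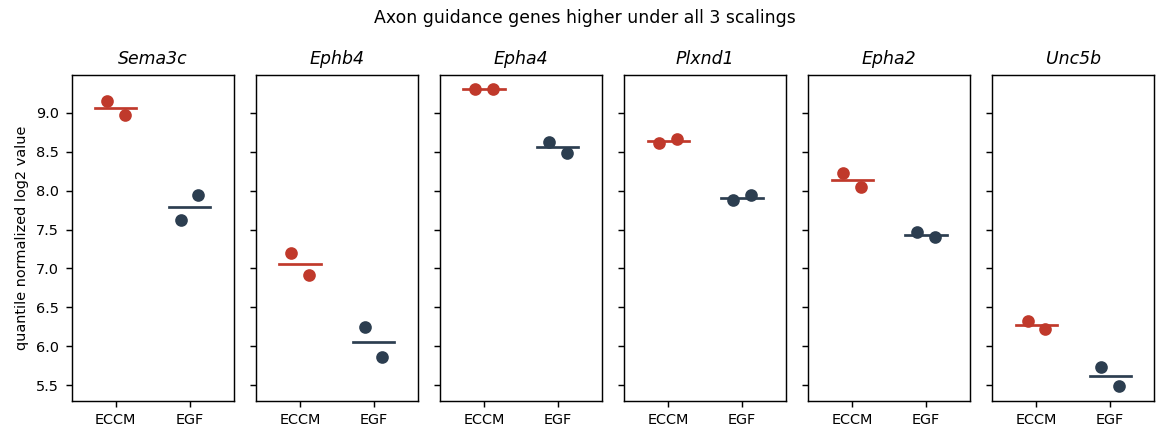
Quantile normalized log2 value of the 6 members that rose, in each of the 2 ECCM (red, left) and 2 EGF (dark, right) arrays, with the group mean as a line. In each panel both ECCM points lie above both EGF points, with the widest gap of means for Sema3c at 1.28 log2 and the narrowest for Unc5b at 0.66 log2.

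Slits and Robos gave 0 calls of 6 tested. Slit2, a secreted repellent, had 8.25 and 8.50 log2 with ECCM and 8.52 and 7.19 log2 with EGF. EGF replicate 2 was low and the other 3 arrays lay close together (0.52 ± 0.31 SE), so that the difference was 1.17 log2, past the threshold, without EGF replicate 1 and -0.15 log2 without EGF replicate 2. A second probe set of Slit2 above the dim limit had no such low value, at 7.69 and 7.78 log2 as deposited in the EGF arrays, and gave -0.16 log2. Slit1 differed by 0.07 ± 0.17 log2 and Slit3 by -0.05 ± 0.24 log2 (SE).

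The Robos included the lowest receptor difference of the set. Robo3, which lets commissural axons cross the midline, had 7.62 and 8.02 log2 with ECCM and 8.45 and 8.44 log2 with EGF (-0.63 ± 0.13 SE). It was lower on the quantile normalized and median-centred scales and differed by -0.23 log2 as deposited (limma adjusted p = 0.324), so it did not pass under all 3. Robo2, the main Slit receptor of ganglion cells, had 10.92 and 10.88 log2 with ECCM and 10.95 and 11.07 log2 with EGF, and Robo1 differed by 0.02 ± 0.17 log2 (SE).

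Of the netrins and their receptors, 1 of 3 tested rose once Unc50 and Unc5cl are set aside. Unc5b, a repulsive netrin receptor that is also known from endothelial tip cells, stood at 6.33 and 6.22 log2 with ECCM and 5.74 and 5.49 log2 with EGF. The groups did not overlap, and the rise was 1.58-fold (0.66 ± 0.20 SE, limma adjusted p = 0.0271). It was the least steady of the 6, since it did not pass without any 1 of the 4 arrays (0.54 to 0.75 log2). Unc5c, another repulsive netrin receptor, had 9.18 and 9.21 log2 with ECCM and 9.22 and 9.44 log2 with EGF. Ntn1, the netrin secreted at the optic disc, had 5.74 and 6.03 log2 with ECCM and 5.83 and 5.49 log2 with EGF, and its groups overlapped. It passed as deposited alone (0.89 log2), where its groups were apart.

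Dcc, the attractive netrin receptor, lay under the dim limit of 4.77 log2 (mean of the 4 deposited arrays) at 3.58 and 4.16 log2 with ECCM and 3.13 and 3.83 log2 with EGF as deposited. Unc5a and Ntn5 were dim too, and over the 7 untested members the deposited values ran from 2.78 to 5.26 log2. Among these 7 the quantile normalized groups were apart in 1, Unc5a, which was lower. In none of the 49 tested members did a deposited group mean lie under the limit, and on the quantile normalized scale 1 did, that of Sema4d with ECCM. Unc50 differed by 0.09 ± 0.07 log2 and Unc5cl by 0.28 ± 0.25 log2 (SE).

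How many members were called hung on the scaling. As deposited 17 members were higher and 0 lower, against 40.4% higher and 1.78% lower over all genes. Epha3, Efna4, Ntn1, Sema3a, Sema4a, Sema6a, Sema6b, Slit2, Unc50 and Unc5cl passed on the deposited scale alone. Median-centred, 6 were higher and 16 lower, against 10.2% and 32.2% of all genes. After quantile normalization 7 were higher and 9 lower, against 16.5% and 14.6%. The 6 that rose were higher on every scale, and none of the other 43 passed in the same direction on all 3. Under quantile normalization the groups did not overlap in 12 members that were higher and 21 that were lower, against 33.6% and 32.6% of all genes.

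**Figure D3:**
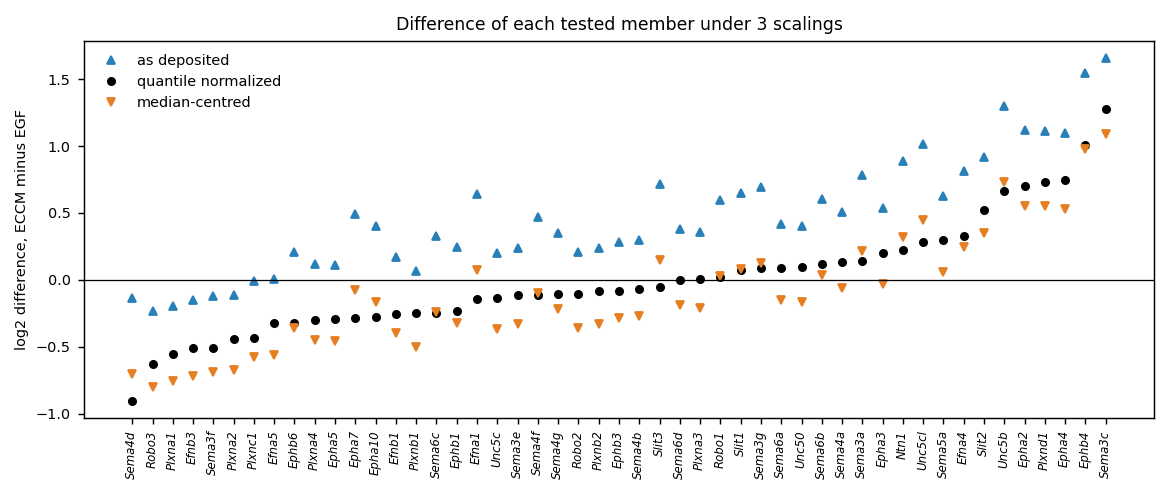
Log2 difference, ECCM minus EGF, of each tested member under the 3 scalings, ordered by the quantile normalized value. The deposited values (triangles up) lie above the others throughout, and the 6 members at the right, from Unc5b to Sema3c, lie above 0.5 log2 on all 3.

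Several probe sets of a gene offer a check within the array. Of the 56 members 22 had several probe sets, 17 of them with at least a second above the dim limit, and in 7 of the 17 these differed in sign: Epha3, Plxna4, Plxnb1, Robo2, Sema5a, Sema6a and Slit2. Epha4 was measured by 4 probe sets above the limit, which gave 0.08 to 0.75 log2, all positive. The probe sets of Robo2 gave -0.11 to 0.56 log2, so the statement for its brightest one does not carry to the others. Those of Sema6a gave -0.32 to 0.11 log2, and those of Sema5a -0.11 to 0.33 log2. The second probe set of Unc5b, under the limit, gave 0.49 log2. Sema3c, Plxnd1, Ephb4 and Epha2 rest on a single probe set each.

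**Figure D4:**
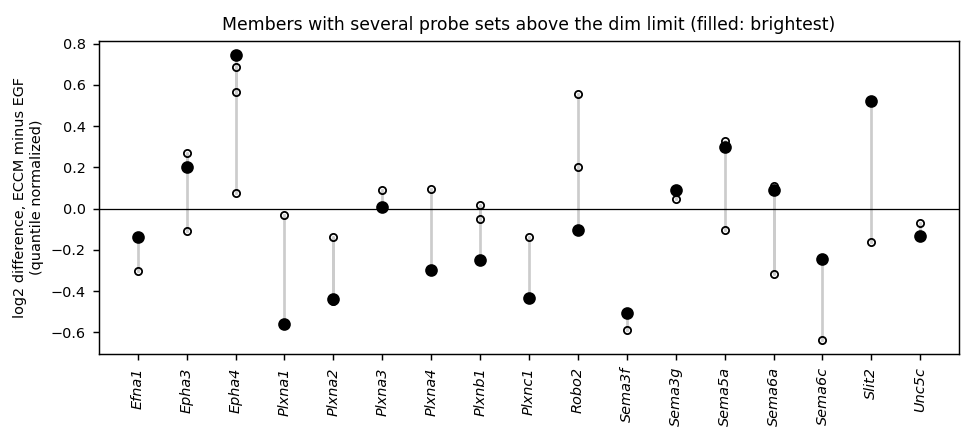
Quantile normalized log2 difference, ECCM minus EGF, of each probe set above the dim limit, for the 17 members with more than 1 such probe set. The brightest is filled, and the probe sets of Epha4 all lie above 0 while those of 7 genes lie on both sides of it.

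The partners of these ligands and receptors were followed through a list of 114 genes in 7 roles, of which 105 had a probe set with a single symbol and 100 were tested. With ECCM 16 rose and 4 fell, or 16% higher and 4% lower beside the 9.12% and 1.78% of all genes. The rises numbered 9 without EGF replicate 2 and 7 without ECCM replicate 2, and the falls 1 to 2 without any 1 array. The co-receptors and other receptors that work with semaphorins and plexins held 5 of the rises among 9 tested. The integrin subunit Itga1 had 6.03 and 6.24 log2 with ECCM and 4.34 and 4.74 log2 with EGF. As deposited it stood at 6.49 and 6.39 log2 with ECCM and 3.79 and 4.52 log2 with EGF. Its deposited EGF mean, 4.16 log2, lay under the dim limit, so it was tested only through its ECCM values. The partner subunit Itgb1, with which Itga1 forms a receptor of collagen and of a membrane-anchored semaphorin, rose by 0.99 ± 0.08 log2 (SE). Erbb2, a receptor kinase that associates with class B plexins, rose by 0.71 log2, the adhesion molecule Nrcam by 0.55 log2 and the myeloid receptor Trem2, named because it makes up the 5, by 0.63 log2. Itgb1 kept its call without any 1 array, Itga1 and Erbb2 lost it without ECCM replicate 2, and Nrcam lost it without EGF replicate 2, without ECCM replicate 2, without limma's intensity trend and with the mean of its probe sets. Trem2 lost it without any 1 array, with the replicate number as a block, without the trend, with the mean of its probe sets and with no dim filter. Trem2 and Itga1 were too dim when the lowest 50% were left out.

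The neuropilins, the ligand-binding partners of plexins for Sema3c, are among the listed co-receptors and were named after Sema3c was seen to rise. Nrp1 had 7.84 and 8.26 log2 with ECCM and 8.04 and 7.65 log2 with EGF (0.21 ± 0.16 SE), and its groups overlapped. Nrp2 had 6.07 and 5.29 log2 with ECCM and 4.62 and 5.29 log2 with EGF (0.73 ± 0.32 SE). Both passed as deposited alone, where they differed by 0.61 and 1.44 log2, so neither passed under all 3 scalings. The deposited EGF mean of Nrp2, 4.56 log2, lay under the dim limit.

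Inside the cell, 3 of 21 semaphorin and plexin effectors rose and 2 fell. Mical1, an actin-oxidising enzyme bound to plexins, rose by 0.87 log2, the small GTPase Rras, on which plexins act as GTPase activators, by 0.83 log2 and the exchange factor Farp1 by 0.47 log2. The collapsin response mediators Crmp1 and Dpysl4, cytoskeletal proteins of growing neurites, fell. Crmp1 had 10.84 and 10.94 log2 with ECCM and 11.78 and 11.78 log2 with EGF, a difference of -0.89 ± 0.07 log2 (SE), and Dpysl4 differed by -0.80 ± 0.07 log2. Dpysl4 was lost without any 1 array, Crmp1 without EGF replicate 2, and both with the replicate number as a block, while Farp1 was lost in all 5 of these fits. Dpysl4 and Farp1 were also lost without the intensity trend, and Farp1 with no dim filter. Mical1 was lost without EGF replicate 2, and Rras kept its call without any 1 array. In the same arrays 5 of 6 tested photoreceptor and 2 of 9 amacrine and horizontal cell markers fell, beside 1.78% of all genes. The part of cell composition was not tested.

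Of 20 Eph and ephrin effectors 4 rose and 0 fell. Rgs3, a regulator of G protein signalling that binds the tail of ephrin-B, rose most, with 11.05 and 10.92 log2 in ECCM and 9.60 and 9.63 log2 in EGF arrays, a 2.59-fold rise (1.37 ± 0.08 SE, limma adjusted p = 1.09e-06). The protease Adam10, which sheds ephrin-A, rose by 0.68 log2, the exchange factor Vav3, which acts in Eph endocytosis, by 0.64 log2 and the adaptor Nck2 by 0.54 log2. Rgs3 and Vav3 kept their calls without any 1 array. Adam10 and Nck2 lost theirs without EGF replicate 2, without ECCM replicate 1 or without ECCM replicate 2 and with the mean of their probe sets (0.44 and 0.42 log2, limma adjusted p = 0.159 and 0.104), and Nck2 also without the intensity trend.

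The Slit, netrin and other lists held fewer. The actin regulator Vasp rose by 0.59 log2 as 1 of 11 Slit and Robo effectors, and dystroglycan, Dag1, which scaffolds Slit in the matrix, by 0.56 log2 as 1 of 9 Slit co-factors. Both lost their calls without ECCM replicate 2 and without the intensity trend, Vasp also without EGF replicate 1 or ECCM replicate 1, and Dag1 also without EGF replicate 2 and with the block. Among 17 netrin partners and effectors the exchange factor Dock1 rose by 0.72 log2. In the same list the neuronal tubulin Tubb3, which binds the Dcc and Unc5 tails, fell by 0.75 log2. The Tubb3 call was lost without any 1 array, with the block, without the intensity trend and with the mean of its probe sets. Among 13 other guidance genes Ngfr, the neurotrophin receptor that joins the Nogo receptor complex, rose 2.11-fold, and Rtn4rl2, a Nogo receptor homologue, fell (7.40 and 7.17 log2 with ECCM, 8.81 and 8.92 log2 with EGF).

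**Figure D5:**
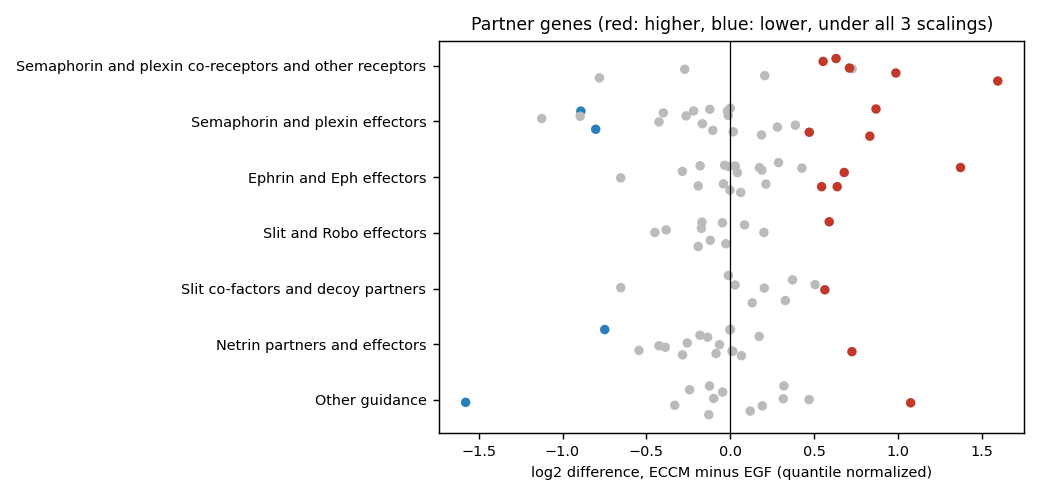
Quantile normalized log2 difference, ECCM minus EGF, of the 100 tested partner genes, 1 point a gene, in 7 roles. Red points (16) rose and blue points (4) fell under all 3 scalings, from Rtn4rl2 at -1.58 log2 to Itga1 at 1.59 log2, with the vertical spread inside a row only separating points. The deposited EGF mean of Itga1 lay under the dim limit.

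Markers of several cell types, some of which could be mixed in, were read beside the rises, and not all of them moved. Over all genes tested 9.12% rose. In Flt1, Tagln, Twist1, Aif1 and Ptprc, which rose, the deposited EGF mean lay under the dim limit (3.49, 4.25, 4.70, 4.46 and 4.21 log2). These markers were tested only through their ECCM values. Of 11 endothelial markers 9 had a probe set with a single symbol and 5 were bright enough to be tested. Flt1 and Esam rose, while Cldn5 (0.67 log2), Kdr (0.41 log2) and Vwf (-0.09 log2) neither rose nor fell. Pecam1, Tek, Tie1 and Emcn lay under the dim limit in every array. The summed endothelial level on the linear scale was 5661 to 5737 with ECCM and 4158 to 4367 with EGF, most of it Kdr, and without Kdr 277 to 306 with ECCM and 177 to 215 with EGF. Of 7 tested mesenchymal and pericyte markers 6 rose, with summed levels of 1575 to 1752 with ECCM and 483 to 486 with EGF. Without the collagen gene Col1a2 the sums were 654 to 783 with ECCM and 360 to 365 with EGF. Dcn and Lum lay under the limit in every array, and Foxc1 and Rgs5 in the mean of the 4 arrays. As deposited Foxc1 had 5.03 and 4.85 log2 with ECCM and 3.56 and 4.46 log2 with EGF. Rgs5 had 5.29 and 5.23 log2 with ECCM and 2.97 and 3.36 log2 with EGF. Of 7 tested microglia markers 4 rose, with sums of 594 to 656 with ECCM and 342 to 369 with EGF. Itgam and C1qb lay under the limit in the mean of the 4 arrays. As deposited C1qb had 5.90 and 5.66 log2 with ECCM and 3.56 and 3.83 log2 with EGF. Itgam had 5.40 and 4.39 log2 with ECCM and 3.85 and 4.41 log2 with EGF. Of 3 tested astrocyte markers 0 rose and 0 fell, with sums of 154 to 169 with ECCM and 170 to 177 with EGF. Only 1 lens marker, Cryaa, was tested, and it neither rose nor fell. Cryba1 lay under the limit in the mean of the 4 arrays. As deposited it had 5.55 and 5.54 log2 with ECCM and 3.34 and 3.59 log2 with EGF. Crybb2, Mip and Lim2 lay under the limit in each group mean. The lens sums were 105 to 134 with ECCM and 79 to 87 with EGF. Of 10 markers of retinal progenitors and Müller glia, all above the limit, 3 rose, with sums of 25452 to 26103 with ECCM and 22294 to 24314 with EGF. Of 7 tested ganglion cell markers Rbpms rose and 0 fell, with sums of 1029 to 1043 with ECCM and 994 to 1077 with EGF, and without Rbpms of 657 to 690 with ECCM and 855 to 928 with EGF, while Pou4f1 and Thy1 lay under the limit. The part of these cells in the values of Sema3c, Plxnd1, Ephb4, Epha2, Epha4 and Unc5b was not tested.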

How the data were processed

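Total RNA of 4 samples was hybridized to an Affymetrix rat 3' expression array. Per the labels, RMA in GenePattern turned each array into log2 values, which the authors deposited. Neither its version nor its options are given in the sources used here. Of 31099 probe sets 20832 had 1 symbol in the platform annotation, 436 several and 9831 none. For each of 14218 genes the brightest probe set was kept, and those in the lowest 30% of mean values (under 4.77 log2) were left out. limma 3.58.1 in R 4.3.3 (lmFit, eBayes with an intensity trend, two-sided) was fitted without a block to 11492 genes under each scaling. On deposited values each gene's spread came from the intensity trend alone, and the prior had 10.5 degrees of freedom median-centred and 8.71 after quantile normalization. No label says that replicates of a number share embryos. Across genes, the deviations of same-numbered arrays correlated at -0.12 (deposited) and -0.03 (quantile normalized). As deposited the p-values therefore rest on that trend and not on the spread between the 2 samples a group. On the other scalings that spread enters together with the larger weight of the prior, and the number of samples limits the precision. The procedure was tested on simulated data.

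Members and lists were chosen with earlier results of these data known. The text names each member called under all 3 scalings, the 2 brightest of each family, its extremes, members whose probe sets differ in sign and up to 4 called partners a role by deposited p. Other names were added after their values were seen, to account for every member. All 56 symbols matched RefSeq by gene identifier. Alternatives were each scaling alone, other dim filters, the mean of all probe sets, no trend, the replicate block and each array left out.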

Additional observations from a re-analysis of the deposited data

How the results depend on the processing

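The 6 rising members became 17 as deposited, and 3 without EGF replicate 2 or without ECCM replicate 1 (3 to 6 over the 4 left-out arrays). The 0 falling members became 16 median-centred and 9 after quantile normalization alone, and stayed 0 elsewhere. Of the 6, Unc5b did not pass with the mean of all probe sets and lay under the limit when the lowest 50% were left out. Partner genes numbered 39 higher as deposited, 36 and 18 lower median-centred and quantile normalized alone, and 10 higher and 2 lower without the intensity trend. Without single arrays they were 7 to 15 higher and 1 to 2 lower. All genes gave 4643 higher as deposited and 1891 after quantile normalization, 3704 and 1673 lower median-centred and quantile normalized, and 130 lower without the trend. Without single arrays they were 506 to 850 higher and 43 to 103 lower, with the lone array assumed to vary like the other group. With the replicate as a block 6 members were higher and 0 lower, partner genes numbered 13 higher (without Dag1, Farp1 and Trem2) and 1 lower (without Crmp1, Dpysl4 and Tubb3), and all genes gave 28 lower. The crossed pairing, added after seeing the data, gave 6 members higher, 17 and 5 partners, and 1174 and 441 genes. Tested members not called with all 4 arrays changed sign in 46 cases. Against a negative quantile normalized difference, the deposited one was 0.64 log2 for Efna1, 0.0035 for Efna5, 0.17 for Efnb1, 0.11 for Epha5, 0.49 for Epha7, 0.40 for Epha10, 0.25 for Ephb1, 0.28 for Ephb3, 0.21 for Ephb6, 0.12 for Plxna4, 0.065 for Plxnb1, 0.24 for Plxnb2, 0.21 for Robo2, 0.23 for Sema3e, 0.30 for Sema4b, 0.47 for Sema4f, 0.35 for Sema4g, 0.32 for Sema6c, 0.38 for Sema6d, 0.72 for Slit3 and 0.20 for Unc5c. Median-centred, Epha3 was at -0.034, Plxna3 at -0.21, Sema4a at -0.063, Sema6a at -0.15, Unc50 at -0.16, Efna1 at 0.075 and Slit3 at 0.15 log2. By the mean of all probe sets Robo2 was at 0.22 and Sema6a at -0.0083 log2. Over the 4 left-out arrays Epha7 ran from -0.65 to 0.092, Plxna3 from -0.046 to 0.058, Plxnb2 from -0.183 to 0.014, Robo1 from -0.027 to 0.068, Sema3g from -0.0072 to 0.19, Sema4a from -0.042 to 0.30, Sema4b from -0.16 to 0.018, Sema4f from -0.25 to 0.033, Sema6a from -0.018 to 0.20, Sema6d from -0.10 to 0.098, Slit2 from -0.15 to 1.17 (called without EGF replicate 1), Slit3 from -0.174 to 0.082 and Unc5cl from -0.020 to 0.57 log2. The cause of these changes was not tested.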
